A study of Mus musculus with 10 samples.

Results

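The 360 sites described here are open chromatin regions of naive CD4 T cells whose mean read count fell by 35% or more in cells without Satb1. They were taken from 61571 nuclear peaks of 1 common peak set by 2 conditions on CPM, the counts of a peak per 1000000 counts of its library in nuclear peaks. The mean of the 5 WT libraries had to be at least 10 CPM, and the mean of the 5 KO libraries at most 0.65 of it. The sites were thus chosen by the KO and WT levels of all 10 libraries, and these levels are a description with no test. Of the 24302 peaks that reached 10 CPM in WT, called open peaks here, 1.48% met the second condition.

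The libraries came from naive T cells (CD3+, CD4+, CD25-, CD44 low or negative) of mouse spleen and lymph node, with 60000 cells per library. KO libraries came from Satb1fl/fl x CD4-CreERT2wt/+ mice given tamoxifen, which frees a Cre recombinase driven by CD4 to cut out the floxed part of Satb1. WT libraries came from untreated mice of that same genotype, so all 10 carry the floxed alleles and the Cre, and tamoxifen and the loss of Satb1 cannot be told apart. Whether each library is 1 animal, and the age and sex of the mice, were not given in the sources used here. Counts in nuclear peaks ranged from 660107 to 2167685 in KO libraries and from 1009853 to 2063791 in WT libraries.

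ATAC-seq marks open chromatin because the Tn5 transposase inserts its adapters mainly where DNA is free of nucleosomes. SATB1 is a nuclear protein abundant in thymocytes and T cells that binds AT-rich DNA and organises chromatin, and it is known for tethering gene regulatory regions and for recruiting remodelling and histone-modifying complexes. Open sites away from promoters are often enhancers, DNA elements bound by transcription factors such as the ETS, RUNX and AP-1 families in T cells, whereas most promoters of active genes stay open across cell types. The deposited annotation gives each peak its nearest gene, which does not show that the site acts on that gene.

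Sequence was at hand for the stretches of peaks that lie in a RefSeq promoter window (250 bases before to 50 after a gene's start, build GRCm38.p6), and 16 of the 360 sites had at least 100 bases in such a window. Of these, 5 stretches are shown, chosen after their values were seen. They were chosen because 4 of them hold matches to the short T cell factor motifs marked below. The other is a GC-rich start site with none of those marked. They read 5′ to 3′ on the strand of the promoter's gene, and capitals mark AGGAAG (ETS), TGTGGT (RUNX) and TGANTCA (AP-1) on either strand. The Commd9 stretch is chr2:101991820-101991979 on the plus strand, in a window of the non-coding Gm39888 inside intron 4 of Ldlrad3. The 5830418P13Rik stretch is chr9:103449157-103449426 on the minus strand, in a window of Bfsp2. The Fam240a stretch is chr9:110916849-110917114 on the minus strand, the Coro1c stretch is chr5:113873106-113873283 on the plus strand (window of Gm42005), and the Yes1 stretch is chr5:32611003-32611220 on the plus strand.
Commd9: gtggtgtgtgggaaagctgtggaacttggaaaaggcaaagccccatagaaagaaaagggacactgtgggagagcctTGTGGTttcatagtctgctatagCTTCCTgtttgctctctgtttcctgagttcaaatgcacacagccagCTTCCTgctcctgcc
5830418P13Rik: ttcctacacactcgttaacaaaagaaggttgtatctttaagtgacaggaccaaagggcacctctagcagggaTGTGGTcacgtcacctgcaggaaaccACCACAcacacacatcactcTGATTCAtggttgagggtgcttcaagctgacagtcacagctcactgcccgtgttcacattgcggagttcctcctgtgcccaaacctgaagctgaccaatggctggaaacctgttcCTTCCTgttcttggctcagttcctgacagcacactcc
Fam240a: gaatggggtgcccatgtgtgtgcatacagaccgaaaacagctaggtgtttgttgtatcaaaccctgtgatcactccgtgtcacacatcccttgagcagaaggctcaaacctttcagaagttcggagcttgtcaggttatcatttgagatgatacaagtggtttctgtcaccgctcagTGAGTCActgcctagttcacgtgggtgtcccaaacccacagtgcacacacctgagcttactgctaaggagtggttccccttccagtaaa
Coro1c: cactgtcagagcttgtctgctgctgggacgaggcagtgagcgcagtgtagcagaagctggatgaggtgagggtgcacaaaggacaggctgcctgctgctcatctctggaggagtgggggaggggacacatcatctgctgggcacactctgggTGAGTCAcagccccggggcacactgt
Yes1: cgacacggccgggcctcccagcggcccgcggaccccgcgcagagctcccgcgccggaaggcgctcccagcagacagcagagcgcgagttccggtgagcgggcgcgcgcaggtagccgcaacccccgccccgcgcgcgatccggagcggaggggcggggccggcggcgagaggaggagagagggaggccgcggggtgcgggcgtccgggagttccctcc

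The site at Commd9, a gene of the COMMD family that acts in endosomal sorting, had 6.55, 5.79, 3.03, 8.77 and 6.92 CPM in libraries KO_2268 to KO_2272, against 13.9, 17.4, 11.1, 11.0 and 11.8 CPM in libraries WT_2273 to WT_2277. All per-library values below keep these orders of libraries. The KO/WT ratio of its means was 0.476, the smallest of the 16, and no KO library reached the lowest WT library. The stretch holds 1 RUNX and 2 ETS matches and is 50.0% G and C. The 5830418P13Rik site holds matches of all 3 kinds and had a ratio of 0.605, with 9.46, 8.69, 6.06, 14.1 and 13.8 CPM in KO libraries and 14.9, 17.4, 18.4, 17.5 and 18 CPM in WT libraries. The Yes1 site covers the GC-rich start of a Src-family kinase gene (79.8% G and C). Its stretch holds no match of these 3 kinds, but 2 matches to GGGCGGG, a motif of SP and KLF factors. It had 13.1, 14.5, 7.57, 14.1 and 14.3 CPM in KO libraries, against 18.8, 17.4, 22.8, 20.7 and 31.7 CPM in WT libraries. At the 5830418P13Rik and Yes1 sites the groups did not overlap. Fam240a had 8.73, 11.6, 15.1, 17.5 and 18.5 CPM in KO libraries, against 22.8, 32.3, 32.9, 16.2 and 21.1 CPM in WT libraries. The site in Coro1c, a gene of an actin-binding protein, had 8.73, 2.90, 3.03, 12.2 and 12.5 CPM in KO libraries, against 11.9, 14.4, 10.7, 14.9 and 11.2 CPM in WT libraries. Both of these overlapped, with libraries KO_2271 and KO_2272 above the lowest WT library.

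Over the 16 stretches, 18.8% held an AP-1 match, compared with 3.34% of 7854 open peaks cut to such windows in the same way. For RUNX the shares were 18.8% and 10.1%, for the 6-letter ETS match 37.5% and 29.1%, and for AGGNGGC, part of the CTCF motif, 18.8% and 40.3%. A longer ETS match, CCGGAAGT, went the other way, with 0% and 9.84%, and the joint ETS and RUNX match GGANGTGG had 12.5% and 12.7%. In all 20 motifs were counted, on both strands, and those given here were picked after their shares were seen. The 3 sites behind the AP-1 share are 5830418P13Rik, Fam240a and Coro1c. The median GC content was 58.3% in the 16 sites and 63.9% in the open peaks, with 2.56 and 8.27 CpG dinucleotides per 100 bases. In the 3262 such open peaks under 40 CPM in WT, the AP-1, RUNX, 6-letter ETS and AGGNGGC shares were 3.53%, 10.4%, 29.7% and 34.9%. For CCGGAAGT and GGANGTGG they were 9.50% and 11.8%. Those weaker peaks had a median GC content of 62.2%, 7.45 CpG per 100 bases and a median length of 227.5 bases. With 16 stretches these shares rest on few sites, the stretches differ in length (median 179 bases, and 300 bases in open peaks), and a match is only letters in a window.

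Seen over all 360 sites, the summed level was 3224, 3100, 2871, 3885 and 3808 CPM in KO libraries, against 5515, 6030, 6039, 5526 and 5747 CPM in WT libraries. The mean was 3378 ± 447 CPM in KO libraries and 5772 ± 257 CPM in WT libraries (SD, n = 5 each), a ratio of 0.585. Libraries KO_2271 and KO_2272, the most deeply sequenced of their group, stood highest. Between the 2 deepest KO and the 2 deepest WT libraries the ratio was 0.637, and among the shallower libraries 0.548. The median site had 4.5 to 20 counts in a KO library and 13 to 29 counts in a WT library, and 1 count was worth 0.461 to 1.51 CPM, so single sites carry a large counting error.

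The ratio of single sites had a median of 0.60. It was at most 0.5 at 36 sites and at most 0.4 at 4, while the median open peak had a ratio of 0.982. In 138 sites (38.3%) every KO library lay below every WT library, which was true of 1.5% of all open peaks. Because this contrast chose the sites, nothing is read from that gap. Just inside the limit stood sites at Gm4814, Gm572 and Chn2 with ratios of 0.649, 0.649 and just under 0.65, and just outside it peaks at Il12rb2, Rab11b and 5430437J10Rik, each with a ratio just over 0.65. The limit cuts through a dense range, since 180 sites had ratios from 0.60 to 0.65 and 360 more open peaks lay between 0.65 and 0.70. At the WT limit, the sites at Ptpn6, Eef1a1 and Prep averaged 10.0 CPM in WT, as did peaks at Mir32, A330093E20Rik and Mir1942 that missed it with 9.97, 9.98 and 9.98 CPM.

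**Figure D1:**
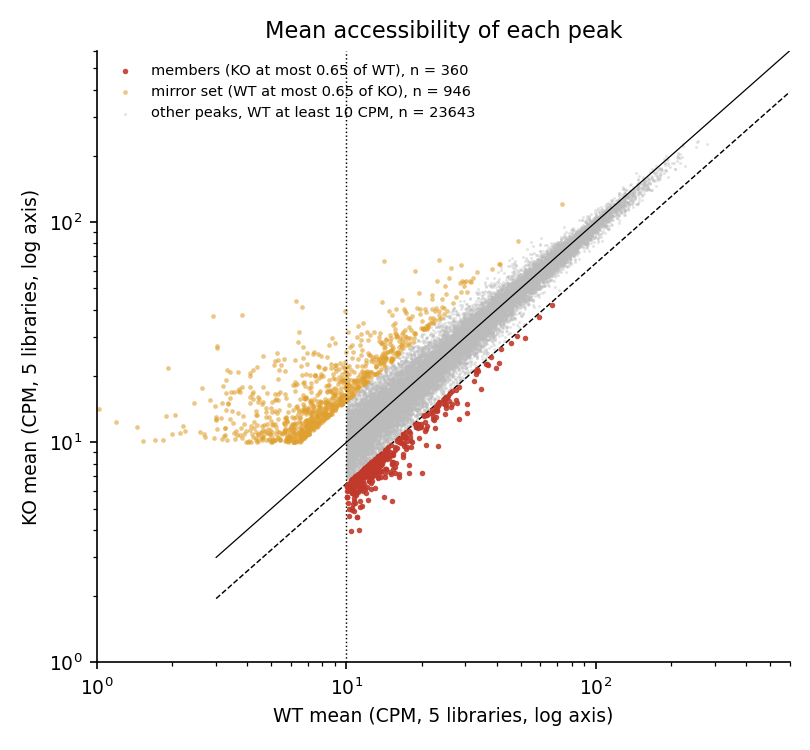
Mean CPM over 5 KO libraries (y axis, log scale) against mean CPM over 5 WT libraries (x axis, log scale) for each open peak and each peak of the mirror set (KO mean at least 10 CPM and WT mean at most 0.65 of it). Solid line, equal means; dashed line, the 0.65 limit; dotted line, the WT limit of 10 CPM. The 360 sites (members) lie below the dashed line and reach 66.6 CPM in WT, while the 946 peaks of the mirror set lie above the solid line.

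How much of the difference came from the choice itself was described by choosing sites without 1 KO and 1 WT library and then reading those 2 libraries. Over the 25 such pairs, 332 to 664 sites were chosen, and the libraries used to choose them gave ratios of 0.579 to 0.588. The 2 libraries left out gave ratios of summed CPM from 0.668 to 0.921, with a median of 0.776. In the libraries left out, 57.7% to 84.1% of the chosen sites were lower in KO, compared with 48.5% to 54.1% of all open peaks. The loss outside the choosing libraries was therefore smaller than the loss that defined the sites, and was present in each of the 25 pairs. As the pairs combine the same 5 KO and 5 WT libraries, they are not 25 separate observations. When 1 KO library alone was left out, its level over the WT mean averaged 0.699 ± 0.063 (SD, n = 5), with libraries KO_2271 and KO_2272 highest at 0.779 and 0.753. That WT mean was itself used in the choice. When 1 WT library alone was left out, its level over the mean of the other WT libraries averaged 0.893 ± 0.061 (SD, n = 5) and ran from 0.817 to 0.961, below 1 in all 5. The mirror set, chosen by the same limits with KO and WT exchanged, had ratios of summed CPM (median over the pairs) of 1.74 in the libraries left out and 1.99 in the choosing libraries.

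**Figure D2:**
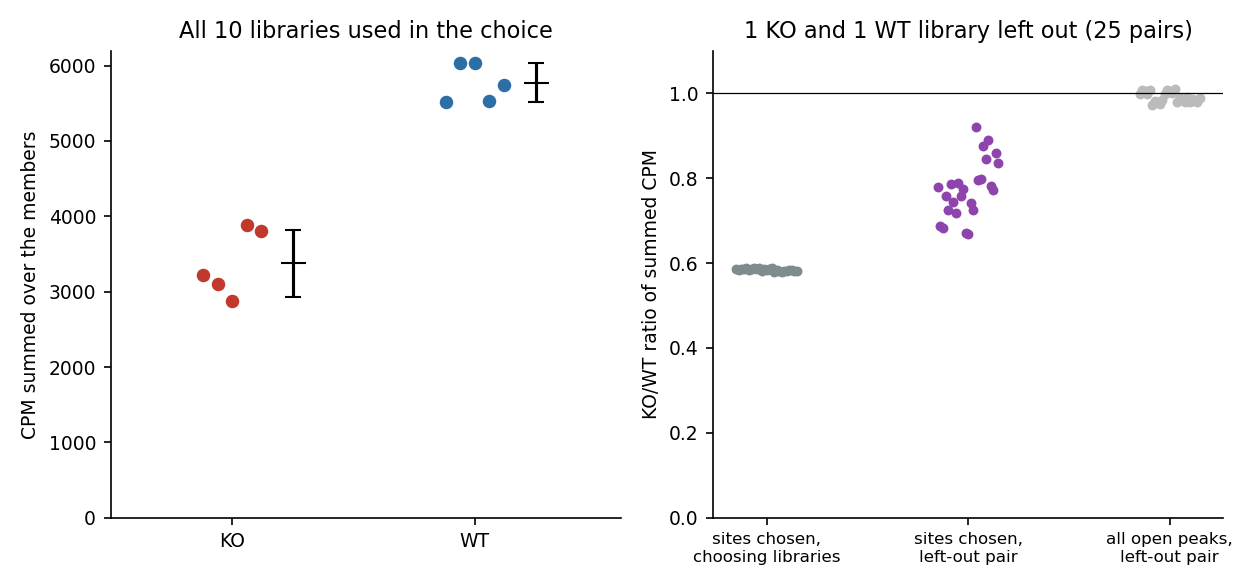
Left, CPM summed over the 360 members in each library, with the mean and SD beside the 5 points of each group; KO libraries lie between 2871 and 3885 CPM and WT libraries between 5515 and 6039 CPM. Right, KO/WT ratio of summed CPM for 25 choices that each leave out 1 KO and 1 WT library; ratios in the left-out pair (0.668 to 0.921) lie above those in the choosing libraries (0.579 to 0.588) and below 1, while all open peaks in the left-out pair lie between 0.973 and 1.01.

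The sites lay mostly outside promoters. Introns held 153 (42.5%), distal intergenic sequence 106 (29.4%), promoters within 3 kb of a start site 62 (17.2%) and exons 20 (5.56%), with 14 in UTRs and 5 just downstream of genes. Promoters made up 53.2% of open peaks, introns 21.3% and distal intergenic sequence 18.2%. Introns beyond the first held 29.7% of the sites and 12.7% of open peaks. Only 16 sites (4.44%) covered a start site, as 34.7% of open peaks did, and the median distance to the nearest start was 21402 bp in the sites and 1569 bp in open peaks. The sites were also narrow, with a median width of 246 bp beside 350 bp.

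Part of this profile goes with level, since the sites were weak peaks with a median WT level of 13.2 CPM, and 23.6 CPM in open peaks. Open peaks under 20 CPM in WT that were not chosen had a promoter share of 35.9% and a median width of 240 bp. Within a WT level of 10 to 15 CPM, 1.99% of promoter peaks, 4.56% of intronic peaks, 6.01% of exonic peaks and 3.62% of distal intergenic peaks were among the sites. From 20 to 30 CPM the shares were 0.249%, 2.25%, 1.78% and 1.6% in that order. At both levels the promoter share thus lay below the others, whereas the width was close to that of other weak peaks. The mirror set had nearly the same make-up, with 18.4% promoters, 42.7% introns and 33.6% distal intergenic peaks, though its exon share was 2.33%.

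**Figure D3:**
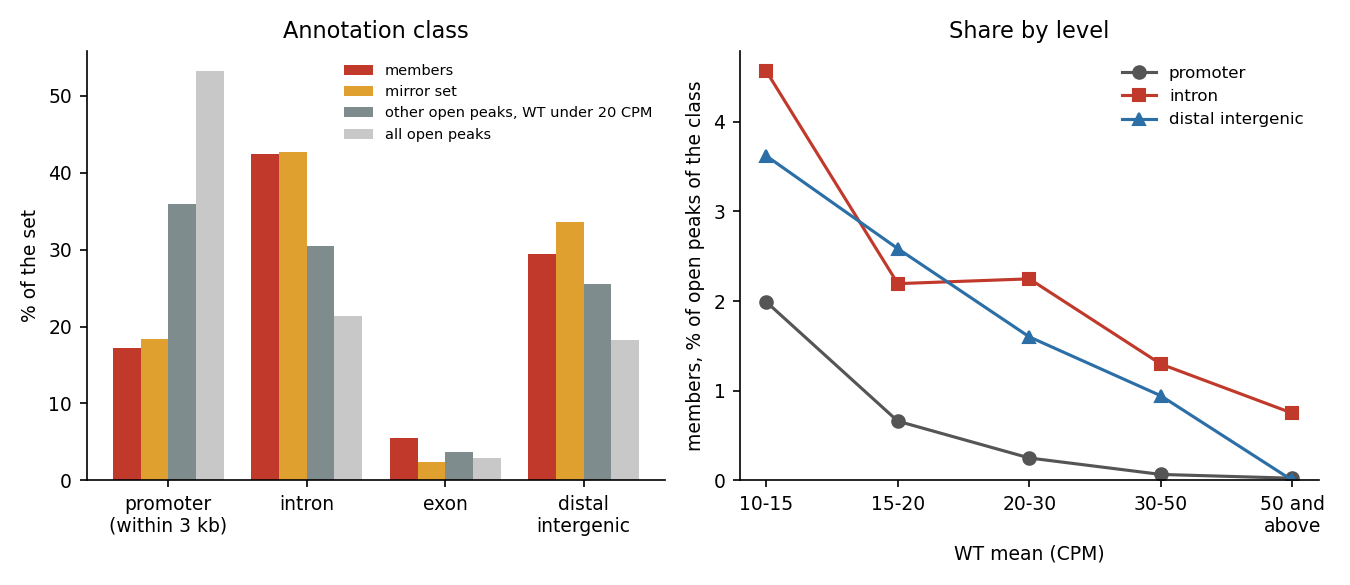
Left, share of each peak set (%) in 4 annotation classes; the members and the mirror set have promoter shares of 17.2% and 18.4%, against 35.9% in other weak open peaks and 53.2% in all open peaks. Right, members as a share (%) of the open peaks of a class, by WT level in CPM; promoters lie below introns at every level, with 1.99% of promoters and 4.56% of introns at 10 to 15 CPM.

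The sites with the smallest ratios lay in and near genes of varied function. The site with the smallest ratio, 0.354, was chr6:52111929-52112115 in exon 3 of Halr1, a long non-coding RNA gene beside the Hoxa cluster. It had 2.18, 6.76, 1.51, 4.87 and 4.61 CPM in KO libraries, against 9.90, 12.8, 12.6, 11.7 and 9.31 CPM in WT libraries. The groups did not overlap, and a companion site 4003 bp away (chr6:52115895-52116155, 3′ UTR) had a ratio of 0.527 with groups that did overlap. An intergenic site 175854 bp upstream of Ube2e1, a ubiquitin-conjugating enzyme gene, had 6.55, 2.90, 3.03, 6.33 and 8.30 CPM in KO libraries, against 17.8, 17.4, 12.6, 14.9 and 13.7 CPM in WT libraries. Its ratio was 0.355, and the groups were apart. The site annotated to Prkar1a, which encodes a regulatory subunit of protein kinase A, lay in intron 11 of Fam20a and had a ratio of 0.364. Its levels were 7.28, 7.73, 1.51, 9.74 and 10.1 CPM in KO libraries, against 19.8, 21.5, 25.2, 16.8 and 16.8 CPM in WT libraries, again with no overlap.

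The sites described next are also among the 12 with the smallest ratios, but are not in order of rank. A site 57683 bp upstream of Ptpn13, a protein tyrosine phosphatase gene, had 12.4, 8.69, 6.06, 10.2 and 10.6 CPM in KO libraries, against 21.8, 30.3, 24.7, 19.4 and 20.5 CPM in WT libraries, with a ratio of 0.411. A site in intron 2 of Rftn1, which encodes the lipid raft protein raftlin, had 9.46, 4.83, 3.03, 9.25 and 8.30 CPM in KO libraries, against 16.8, 13.3, 20.4, 14.9 and 15.5 CPM in WT libraries, with a ratio of 0.431. Neither pair of groups overlapped. Further sites among the lowest 12, at Actr10 (a dynactin subunit), Fanci (a DNA crosslink repair gene), Wdr37, Slc47a2, Tulp3 and Mns1, had ratios of 0.382 to 0.441. At Mns1, a gene of sperm flagella, 1 library of each group stood far above its others, library KO_2272 with 22.1 CPM and library WT_2274 with 28.7 CPM. For none of the genes named from the lowest 12 did the sum of the gene's other peaks pass the test described further on.

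**Figure D4:**
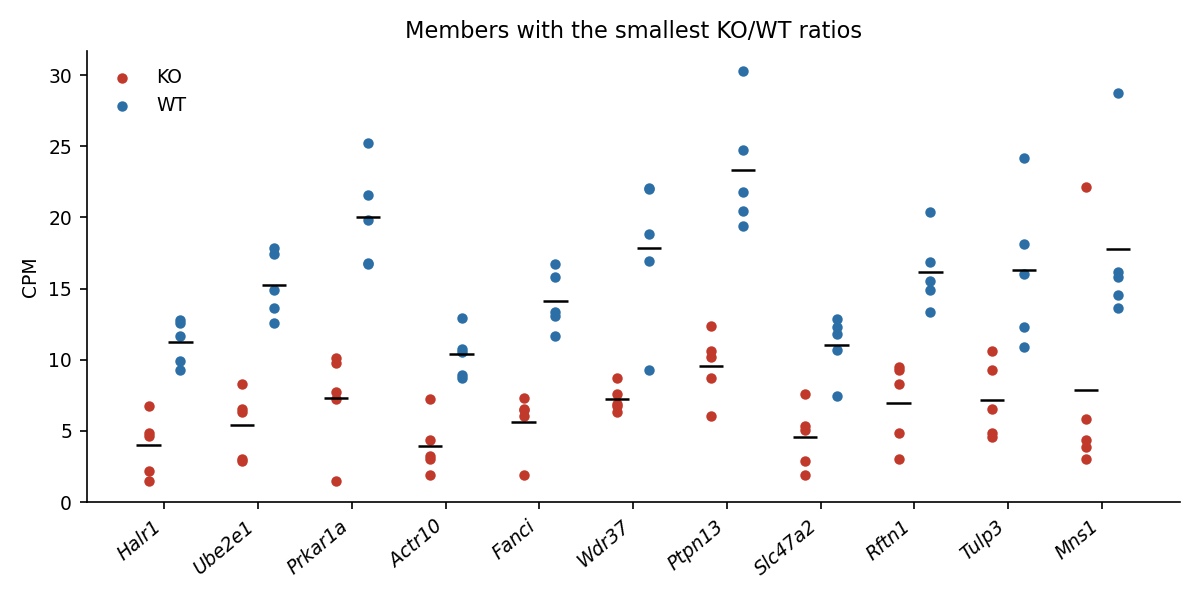
CPM in each of 5 KO and 5 WT libraries (points) with the group mean (bar) at 11 of the 12 members with the smallest KO/WT ratios, 1 per gene. KO means lie between 3.97 and 9.59 CPM and WT means between 10.4 and 23.3 CPM, and groups overlap at Slc47a2 and Mns1.

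The strongest of the 360 sites in WT cells carried more counts and thus less counting error, and their ratios lay closer to the limit. The strongest was an intronic site of Ago2, the core enzyme of RNA silencing, whose nearest start is that of the histone-fold gene Chrac1. It had 34.9, 33.8, 47.0, 48.2 and 45.7 CPM in KO libraries, against 62.4, 79.0, 78.5, 52.4 and 60.8 CPM in WT libraries, with a ratio of 0.629. A site in intron 8 of Fbln1, an extracellular matrix gene, had 34.2, 33.8, 37.9, 39.0 and 41.1 CPM in KO libraries, against 61.4, 57.5, 58.6, 58.3 and 59.6 CPM in WT libraries, the same ratio of 0.629 with tight groups that did not overlap. Sla2 encodes an adaptor that dampens T cell receptor signalling, and a site in its intron 2 had 21.8, 30.9, 19.7, 29.2 and 30.9 CPM in KO libraries, against 41.6, 43.6, 46.0, 43.4 and 33.5 CPM in WT libraries, with a ratio of 0.637. Sites at Bambi-ps1, Zfp800 and Chst2 completed the strongest 6, with ratios of 0.574, 0.629 and 0.617 and no overlap of groups.

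Among promoter sites within 1 kb of a start, the smallest ratios were 0.469 at Pwp1, 0.517 at A730085K08Rik and Atp6v0d1, 0.533 at Bora, 0.536 at Snap29 and 0.540 at Mir7007. Bora encodes an activator of Aurora A kinase, and its site had 6.55, 0.966, 7.57, 7.31 and 7.38 CPM in KO libraries, against 8.91, 12.3, 10.7, 9.06 and 14.9 CPM in WT libraries. Snap29, a membrane fusion gene, had 7.28, 3.86, 6.06, 5.84 and 7.38 CPM in KO libraries, against 10.9, 10.3, 14.1, 11.0 and 10.6 CPM in WT libraries. Groups overlapped at Pwp1 and Atp6v0d1 and were apart at the other 4.

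Most genes held a single site: the 360 sites had 344 nearest genes, of which 329 held 1, 14 held 2 and Amigo2 held 3. No pair of sites lay within 2 kb, while 0.426% of the other open peaks had a site that near. Within 10 kb 6 sites had another (1.67%), beside 1.46% of the other open peaks with a site in that range. These 6 sites form pairs at Eif4e3, Halr1 and Pgpep1l (introns of Igf1r). The pair in intron 2 of Eif4e3, a cap-binding translation factor gene, had ratios of 0.590 and 0.590 with centres 2843 bp apart. The stronger had 16.01, 16.4, 12.1, 17.05 and 12.5 CPM in KO libraries, against 20.8, 29.8, 21.3, 22.7 and 31.0 CPM in WT libraries, and its groups did not overlap. The sites of Siah1a, a ubiquitin ligase gene, lay 51710 and 33252 bp upstream with ratios of 0.489 and 0.607, and the first had 11.6, 16.4, 10.6, 19.97 and 15.7 CPM in KO libraries, against 29.7, 34.9, 27.1, 31.1 and 29.2 CPM in WT libraries. In Abcg1, a cholesterol exporter gene, 2 sites in intron 2 had ratios of 0.606 and 0.639. The 3 sites given to Amigo2, an adhesion gene, lay between chr15:97311311 and chr15:97429468 with ratios of 0.595, 0.622 and 0.631 and overlapping groups, while the median of that gene's other open peaks was 1.00. The remaining genes with 2 sites were 1810055G02Rik, Arid1b, Cyth1, Dbx1 (introns of Nav2), Map4k4, Mir467h, Mir7661 (introns of Itpr1), Qrfp and Slc4a4, with ratios from 0.477 to 0.649. By chromosome, the share of open peaks among the sites ran from 0.701% on X to 2.49% on chromosome 9, leaving aside Y with 0 of 6 open peaks.

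Gene lists of T cell biology held few of the sites. Of 243 open peaks of 22 naive and quiescence genes, 1 was a site (0.412%), in intron 2 of Bach2, a repressor that keeps T cells naive. It had 8.73, 4.83, 9.09, 7.79 and 4.15 CPM in KO libraries, against 9.90, 19.0, 18.4, 9.71 and 6.21 CPM in WT libraries, which overlap. T cell receptor signalling genes had 1 site in 162 open peaks (0.617%), at Lcp2 (the SLP-76 adaptor, ratio 0.590). IL-2 signalling genes had 2 in 82 (2.44%), at Jak1, 1 of the kinases that act at receptors with the common gamma chain (0.648), and Socs3, an inhibitor of such kinases (0.575). T helper programme genes had 2 in 108 (1.85%), at Irf4 (0.527) and Bcl6 (0.597), and the lists of regulatory T cell genes and of activation and memory genes had 0 in 26 and 0 in 82. Chromatin organisers had 1 in 120, at Runx1 (0.632), oestrogen response genes 1 in 38, at Nrip1 (0.544), and housekeeping genes 1 in 50, at Ywhaz (0.494). The share of all open peaks was 1.48%, some lists lay below it and some above, and as each rests on 2 sites or fewer no list is set apart from the rest.

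The Irf4 site covered exon 8 of the gene, which encodes a factor that activated T cells need to differentiate, and had 7.28, 6.76, 3.03, 9.25 and 6.92 CPM in KO libraries, against 15.8, 10.8, 15.02, 8.42 and 13.03 CPM in WT libraries. Library KO_2271 stood above library WT_2276. Bcl6 encodes the repressor that directs follicular helper cells, and its site lay 165478 bp upstream with 5.82, 7.73, 9.09, 5.84 and 7.84 CPM in KO libraries, against 9.90, 13.3, 11.6, 12.9 and 13.03 CPM in WT libraries, with no overlap. Summed over their other peaks, neither gene passed the test, with 234 ± 22.5 CPM in KO libraries and 235 ± 17.5 CPM in WT libraries at Irf4, and 254 ± 14.5 CPM in KO libraries and 247 ± 11.1 CPM in WT libraries at Bcl6 (SD, n = 5 each).

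Satb1 itself held none of the sites. In CPM over counts outside the sites, its 26 peaks summed to 394 ± 10.0 CPM in KO libraries and 344 ± 18.1 CPM in WT libraries (SD, n = 5 each), 1.14-fold higher in KO with an adjusted p of 0.0284 by the quasi-likelihood test of edgeR with Benjamini-Hochberg adjustment. The call was lost by DESeq2 (adjusted p = 0.101) and, by edgeR, with the library sums described next (adjusted p = 0.504), without the 3 lowest totals (adjusted p = 0.138), and without KO_2268, KO_2271, WT_2273, WT_2276 or WT_2277 alone (adjusted p of 0.0624 to 0.113), while the fold stayed between 1.12 and 1.16. Peak counts of this kind do not measure the deletion. Markers of CD4 T cells summed to between 3552 and 3824 CPM in KO and between 3431 and 3791 CPM in WT. For B cell markers the sums were 66.2 to 81.8 CPM in KO and 64.9 to 91.2 CPM in WT, with Ms4a1, Pax5 and Ebf1 among those with no annotated peak. Myeloid markers summed to 438 to 511 CPM in KO and 431 to 468 CPM in WT, NK and innate lymphoid markers to 395 to 440 CPM in KO and 400.3 to 422 CPM in WT, CD8 and cytotoxic markers to 417 to 470 CPM in KO and 449 to 503 CPM in WT, and erythroid and stromal markers to 288 to 319 CPM in KO and 296 to 320 CPM in WT. A site fell on a marker of other cells at Prf1 (0.491, an intron of Pald1). In bulk chromatin, fewer cells of a type and less signal per cell cannot be told apart.

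Libraries of a group were only partly alike. A chi-square test of the counts found no difference at the 0.05 level in 10 of the 20 pairs of libraries from the same group, a difference in the other 10, and a difference in all 25 pairs of a KO with a WT library. The chi-square per degree of freedom ran from 0.883 to 1.27 within groups and from 1.02 to 1.49 between them, so the ranges overlap. The labels list all 10 as separate samples with different totals, so n was kept at 5 per group. Counts with the libraries that this test did not tell apart summed, which leaves 2 sets per group, are given too. Nothing says that they are separate animals, so the p-values rest on a spread between libraries that may be technical.

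Of the 360 sites, 359 had counts enough to test, the exception being 1 at Gm10677, and 183 passed at an adjusted p under 0.05 (quasi-likelihood test of edgeR, Benjamini-Hochberg over 34695 peaks) as lower in KO. Over all peaks tested, 0.928% were called lower and 2.96% higher, and of the open peaks 1.26% were called lower. Since the same contrast chose the sites, nothing is read from the 183. DESeq2 called 52 of the 359, where 0.167% of all peaks were called lower.

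Peaks next to the sites were not used to choose them and could be tested. Within 10 kb of a site's centre lay 488 other tested peaks, of which 3 were called lower and 14 higher in KO. The shares were 0.615% and 2.87%, beside 0.405% and 2.99% of all 34336 peaks that were not sites. At an unadjusted p under 0.05, edgeR had 41 of the neighbours lower (8.402%, beside 4.80% of the peaks that were not sites) and 31 higher (6.35%, beside 7.95%). The median log2 fold change of these neighbours was -0.036, and that of all peaks that were not sites was -0.0034. The 3 neighbours called lower were at Map4k4 (fold 0.772), Dmbt1 (0.681) and Bcl6 (0.669), with adjusted p of 0.0106, 0.0447 and 0.0479 by edgeR. DESeq2 called 0 of the 488 lower, with 15 at an unadjusted p under 0.05 (3.07%, beside 1.83% of the peaks that were not sites). By edgeR 0 were called lower without library WT_2275, with 31 at an unadjusted p under 0.05 (6.26%, beside 4.58%). With the libraries summed 0 were called lower too, with 48 of 717 peaks at an unadjusted p under 0.05 (6.69%, beside 3.53%). The neighbour at Bcl6, 2024 bp from the site there, had 11.6, 15.5, 9.09, 10.7 and 14.8 CPM in KO libraries, against 15.8, 20.5, 19.4, 20.1 and 17.4 CPM in WT libraries. Those groups did not overlap.

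The 14 neighbours called higher stood beside 12 sites. Their share is close to the background, so these pairs are given as single examples only. A peak of the mirror set lay within 10 kb of 3.06% of the sites. The share for the other open peaks, 5.26%, counts the 299 open peaks of the mirror set as their own neighbours. These 2 shares are therefore not compared. The 6 pairs described were chosen after their values were seen, as those that DESeq2 called too. They are the neighbours at Tasp1, Prr13, Mir21a, Sgk1, 1700017B05Rik and Pip4k2a. Sgk1 encodes a salt- and cytokine-responsive kinase known for a role in Th17 cells. In its first intron the site chr10:21907094-21907410 had 13.1, 14.5, 15.1, 15.6 and 17.1 CPM in KO libraries, against 18.8, 32.8, 34.4, 30.4 and 22.3 CPM in WT libraries. The neighbour chr10:21905691-21905997, with its centre 1408 bp away, had 40.8, 36.7, 40.9, 42.9 and 36.4 CPM in KO libraries, against 23.8, 24.1, 18.4, 24.0 and 23.0 CPM in WT libraries. It was 1.77-fold higher in KO (adjusted p = 1.08e-06, edgeR), and at both peaks the groups did not overlap, in opposite directions.

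At Mir21a, the gene of a microRNA induced on T cell activation, the site chr11:86578935-86579338, 4820 bp past the start, had 22.6, 21.2, 22.7, 21.9 and 24.4 CPM in KO libraries, against 28.7, 34.4, 40.2, 38.8 and 39.1 CPM in WT libraries. Its neighbour 7898 bp away, chr11:86586817-86587252 upstream of the start, had 53.1, 55.1, 42.4, 51.6 and 53.5 CPM in KO libraries, against 28.7, 31.8, 35.4, 27.2 and 24.8 CPM in WT libraries, 1.74-fold higher in KO (adjusted p = 7.85e-08, edgeR). Again neither peak had overlapping groups. At Prr13, a proline-rich protein gene, the site chr15:102458255-102458513 lay 657 bp upstream of the start with a ratio of 0.547, and the neighbour chr15:102458900-102459238 covered the start itself. That neighbour averaged 40.1 ± 4.98 CPM in KO libraries and 22.0 ± 3.54 CPM in WT libraries (SD, n = 5 each), 1.902-fold higher in KO (adjusted p = 5.66e-08, edgeR).

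Tasp1 encodes the protease that cleaves the MLL histone methyltransferase. Its site chr2:140042130-140042372 had 8.01, 12.6, 3.03, 10.7 and 10.1 CPM in KO libraries, against 18.8, 12.8, 15.5, 12.9 and 16.8 CPM in WT libraries. An intronic neighbour 9604 bp away, chr2:140051700-140052011, had 15.3, 20.3, 13.6, 19.0 and 16.6 CPM in KO libraries, against 0, 5.64, 3.88, 3.88 and 4.34 CPM in WT libraries. With a fold of 4.36 (adjusted p = 9.7e-10, edgeR) this was the largest change among the 17 called neighbours, and the groups were far apart. At 1700017B05Rik the neighbour was 3.78-fold higher in KO (adjusted p = 1.16e-06, edgeR), but its site had 5.09, 8.69, 6.06, 6.82 and 10.1 CPM in KO libraries and 4.95, 6.67, 7.27, 25.2 and 30.4 CPM in WT libraries, so that site rests on libraries WT_2276 and WT_2277. At Pip4k2a, a lipid kinase gene, the site had a ratio of 0.541 and the neighbour was 2.06-fold higher in KO (adjusted p = 0.00216, edgeR). The groups overlapped at both of these peaks.

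**Figure D5:**
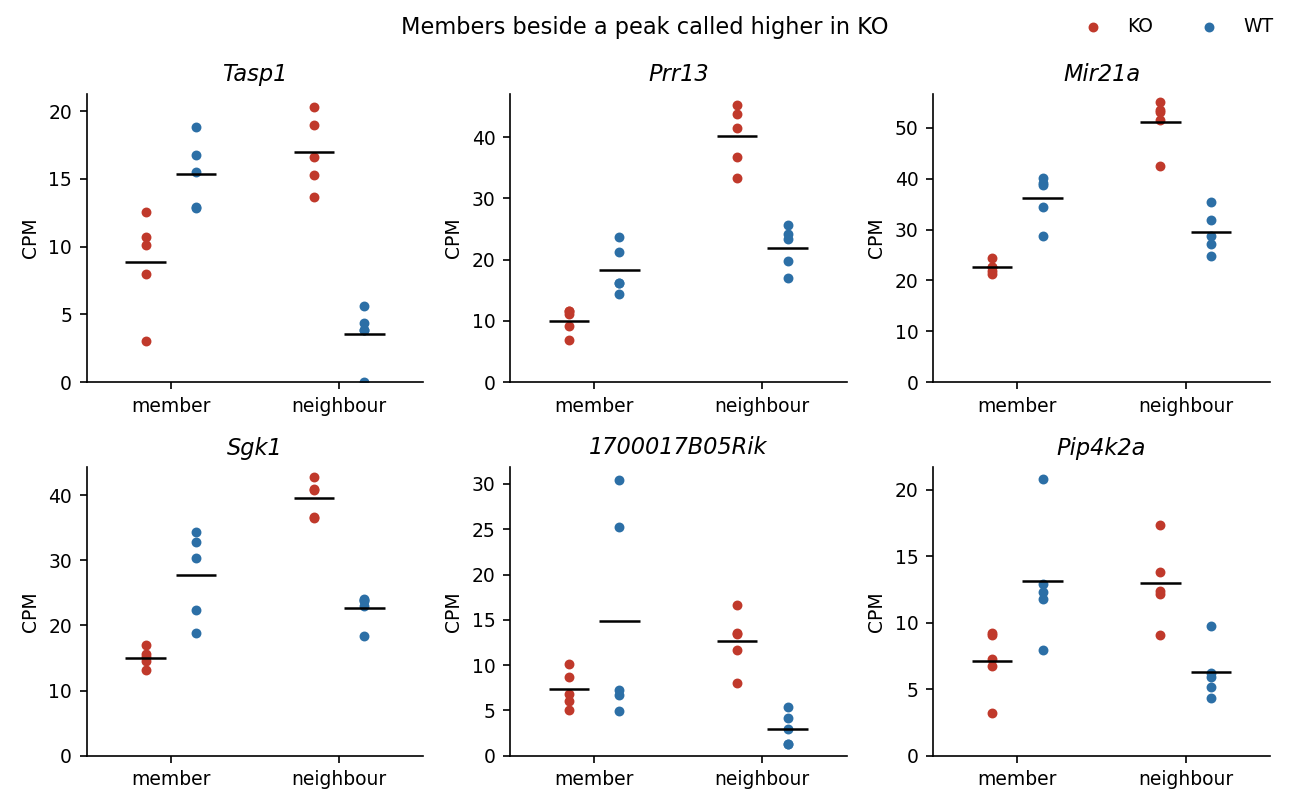
CPM in each of 5 KO and 5 WT libraries (points) with the group mean (bar) at 6 members and at the neighbouring peak within 10 kb that was called higher in KO with the smallest adjusted p. By their means, members are lower and neighbours higher in KO. At 1700017B05Rik the WT mean of the member rests on 2 libraries with 25.2 and 30.4 CPM, and at Pip4k2a the groups overlap at both peaks.

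Genes were then tested on the sum of their peaks with the 360 sites left out, which again was not used in the choice. Of the 344 genes 318 could be tested, and 6 were called lower and 6 higher in KO by edgeR at an adjusted p under 0.05. Each count is 1.89% of the genes, where 0.305% of all 14083 genes tested were called lower and 1.86% higher. The share called higher is near the background, and the share called lower is above it but rests on 6 genes. The median log2 fold change of the 318 was -0.025, and that of the other 13765 genes was -0.0049. At an unadjusted p under 0.05 edgeR had 39 lower (12.3%, beside 5.11% of the other genes) and 20 higher (6.29%, beside 6.91%). DESeq2 called 0 lower, beside 0.0218% of the other genes, with 18 at an unadjusted p under 0.05 (5.66%, beside 2.11%). It called 4 higher (1.26%, beside 0.886%). Without library KO_2272 edgeR called 1 lower, and the share of the other genes in that run is not given here. Without library WT_2275 it called 4 of 319 lower (1.25%, beside 0.209% of the other genes). With the libraries summed it called 1 of 334 genes lower (0.299%, beside 0.0585% of the other genes) and 3 higher (0.898%, beside 0.904%).

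The genes called lower were Gadl1, Mad1l1, Foxq1, Baiap2, Dmbt1 and Ccdc33. Mad1l1 encodes a spindle checkpoint protein, and its site, chr5:140215412-140216100 in intron 10, had 19.6, 21.2, 24.2, 25.8 and 23.1 CPM in KO libraries, against 38.6, 45.1, 44.1, 37.5 and 39.7 CPM in WT libraries, with no overlap. The gene's other 12 peaks summed to 126, 117, 111, 121 and 119 CPM in KO libraries, against 125, 154, 143, 148 and 148 CPM in WT libraries, a fold of 0.826 (adjusted p = 0.0158, edgeR). Library WT_2273 lay within the KO range. At Gadl1, an amino acid decarboxylase gene, the other 8 peaks averaged 40.5 ± 7.08 CPM in KO libraries and 53.7 ± 9.22 CPM in WT libraries (fold 0.710, adjusted p = 0.00725, edgeR), and it was the gene that edgeR still called lower without library KO_2272. Its site on chromosome 9 lies in the same stretch as the pair given to Mir467h, between chr9:115526298 and chr9:115704131. Foxq1, a forkhead factor gene, averaged 11.0 ± 1.12 CPM in KO libraries and 17.99 ± 5.69 CPM in WT libraries over 2 other peaks (fold 0.568, adjusted p = 0.0163, edgeR). In the sums of Gadl1 and of Foxq1 the groups overlapped, with library WT_2273 within the KO range at both. Baiap2, Dmbt1 and Ccdc33 had folds of 0.843, 0.669 and 0.777.

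The genes called higher by their other peaks were Mir21a, Prr13, Mir6395, 2310069B03Rik, Zswim2 and Sgk1. Mir21a averaged 139 ± 13.7 CPM in KO libraries and 106 ± 7.10 CPM in WT libraries over 9 other peaks (fold 1.35, adjusted p = 5.59e-05, edgeR), and every KO library stood above every WT library. Sgk1 over 10 other peaks averaged 116 ± 9.74 CPM in KO libraries and 94.2 ± 7.55 CPM in WT libraries (fold 1.225, adjusted p = 0.0191, edgeR), with library KO_2269 below library WT_2274. The Sgk1 call was lost by DESeq2 (adjusted p = 0.166) and, by edgeR, with the libraries summed (adjusted p = 0.267), without the 3 lowest totals (adjusted p = 0.0608), and without KO_2271, WT_2273, WT_2275 or WT_2277 alone (adjusted p of 0.0514 to 0.121). These sums hold the neighbours described above, which alone averaged 51.1 CPM in KO libraries and 29.6 CPM in WT libraries at Mir21a, and 39.5 CPM in KO libraries and 22.6 CPM in WT libraries at Sgk1. The folds of Prr13, Mir6395, 2310069B03Rik and Zswim2 were 1.71, 1.28, 1.81 and 1.24. Across all 193 testable genes of the lists, sites left out, 1 was called lower (0.518%; Ctsd, an oestrogen response gene) and 12 higher (6.22%) by edgeR, beside 0.305% and 1.86% of all genes tested. Higher were 3 of 22 naive and quiescence genes (among them Il7r and Satb1), 1 of 24 T cell receptor genes (Ptpn22), 1 of 16 IL-2 signalling genes (Il2), 5 of 29 T helper genes (Gata3, Il1r1, Il4, Tox and Basp1), 2 of 13 regulatory T cell genes (Ctla4 and Ikzf2), 2 of 23 chromatin organisers (Gata3 and Satb1) and 2 of 14 CD4 T cell markers (among them Il7r). In the other lists edgeR called 0 of 22 activation and memory, 4 B cell, 8 myeloid, 8 NK and innate lymphoid, 6 CD8, 7 erythroid and stromal and 12 housekeeping genes in either direction. At an unadjusted p under 0.05 these lists held 1 B cell gene and 1 CD8 gene lower and 2 activation and memory genes and 1 myeloid gene higher. Over all lists 5 genes were lower (2.59%, beside 5.28% of all genes tested) and 26 higher (13.5%, beside 6.89%) at that unadjusted p. DESeq2 called 0 of the list genes lower, with 5 at an unadjusted p under 0.05, and 8 higher (4.15%, beside 0.895% of all genes). The lists were drawn up with earlier results of these data known, and nothing is read from these shares.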

How the data were processed

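ATAC-seq libraries numbered 5 in the KO and 5 in the WT group (single reads of 75 bp, in-house Tn5, per the labels' protocols). The authors deposited 1 table of raw read counts per peak for all 10 libraries and 1 annotation of its peaks, with positions, widths, annotation classes and nearest genes. The submitters' processing notes name the mouse build mm10 and Trimmomatic 0.36, Bowtie2 2.3.5, Picard, SAMtools 1.9, MACS2 2.1.2, deepTools, ChIPseeker 1.18.0 and DESeq2 1.22.2. Whether peaks were called per library or on pooled reads, whether reads were shifted for Tn5, and what Picard removed were not given in the sources used here.

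Of 61581 deposited peaks, 10 mitochondrial peaks were left out, and CPM used each library's total over the other 61571. The sites and gene lists were chosen with earlier results of these data known. The main test, on the counts as deposited, was glmQLFTest in edgeR 4.0.16 (R 4.3.3, TMM scaling, filterByExpr, 2 groups, no covariate), for peaks and for genes (sum of all peaks given to a gene, sites left out), with Benjamini-Hochberg adjustment over all features and a threshold of 0.05. A called peak or gene thus reflects 1 count table, with no GC correction. DESeq2 1.42.0, limma-voom (limma 3.58.1), RLE scaling, no filter, and each library left out were alternatives, as was summing libraries of a group whose counts a chi-square test did not tell apart, which was added after seeing the data. The edgeR step was first tested on simulated data with known changes. Tables were handled with pandas 2.3.3 in Python 3.11.15 and drawn with matplotlib 3.10.9. Names for peaks without a symbol came from RefSeq (7932 of 7971 matched).

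The genes named are the 12 sites with the smallest ratio, the 6 with the highest WT level, sites on listed genes, genes with 2 or more sites, the 6 promoter sites with the smallest ratio, the sites at each limit, and up to 6 genes per direction called by their other peaks. The 6 neighbour pairs and the sequences were picked after their values were seen, since sequences of the 12 lowest sites would have needed a genome. Sequences came from promoter windows in RefSeq (GRCm38.p6), and no sequence outside those windows was used here. A few named genes are not reported here.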

Additional observations from a re-analysis of the deposited data

Results flagged for a closer look

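Among the sites named in the text, 150 sets of 5 library values were searched for a library that stood apart from the other 4 by Dixon's test, which chance flags in about 1 of 20 sets, and 8 such values were found. In KO libraries, KO_2269 had 1.93 CPM at Fanci, where the others had 6.06 to 7.31 CPM, and 0.966 CPM at Bora, where the others had 6.55 to 7.57 CPM. KO_2268 had 3.64 CPM at the Jak1 site, where the others had 7.73 to 9.25 CPM. At Mns1, KO_2272 had 22.1 CPM and the other KO libraries 3.03 to 5.84 CPM, while WT_2274 had 28.7 CPM and the other WT libraries 13.7 to 16.2 CPM. In WT libraries, WT_2274 had 13.3 CPM at the weaker Pgpep1l site, beside 14.9 to 15.02 CPM, WT_2276 had 22 CPM at the Dbx1 site in intron 38 of Nav2, beside 26.7 to 28.2 CPM, and WT_2275 had 14.1 CPM at Snap29, beside 10.3 to 11.0 CPM. With 1 count worth up to 1.51 CPM, several of these gaps are a few reads wide.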

How the results depend on the processing

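The number of sites depended on the limits: 36 at a ratio limit of 0.5, 1277 at 0.75, 1363 with a WT minimum of 5 CPM, 68 with 20 CPM and 138 where every KO library had also to lie below every WT library. TMM-scaled CPM gave 409, medians 510, and leaving out 1 library 323 to 540, the highest without KO_2271 (540) and KO_2272 (527). Many sites were exchanged: of the 360, 250 (69.4%) were kept with medians, 249 (69.2%) without KO_2270 to 337 (93.6%) without KO_2272, and 205 (56.9%) without the 3 libraries with the lowest totals. The promoter share was 8.33% at the ratio limit of 0.5 and 11.8% at the WT minimum of 20 CPM, the intron share 51.5% at that minimum, and the exon share 13.9% at the ratio limit of 0.5. The level in libraries left out was 0.699 with 1 KO library left out and 0.776 as the median over pairs.

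Peaks called lower in KO numbered 322 by edgeR, 58 by DESeq2, 163 with the libraries summed that a chi-square test did not tell apart and 248 to 352 with 1 library left out. Neighbours within 10 kb called lower numbered 3 by edgeR, 1 by limma-voom, 0 by DESeq2 and 0 with libraries summed. Of all peaks that were not sites, DESeq2 called 0.0175% lower, and edgeR with libraries summed 0.0885%. Limma-voom called 0.781% of all 34695 peaks lower, sites included. By edgeR 1 of 139 peaks within 2 kb (0.719%) and 13 of 1853 within 50 kb (0.702%) were called lower. The share within 10 kb was 0.615%, and that of all peaks that were not sites 0.405%. With 1 library left out, neighbours within 10 kb called lower numbered 0 (without WT_2275) to 5 (without WT_2277). They numbered 1 without KO_2268, KO_2270 or WT_2274. Without WT_2275, 0.315% of all peaks that were not sites were called lower. Genes called lower by their other peaks numbered 6 by edgeR, 0 by DESeq2, 1 with libraries summed, and 1 (without KO_2272) to 7 with 1 library left out. Of the genes without a site, edgeR called 0.269% lower, DESeq2 0.0218%, and edgeR with libraries summed 0.0585%. For a left-out library other than WT_2275, the shares over the other peaks and genes are not given here. Those counts are therefore not set against a background. For these changes the cause was not tested.

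No paired analysis was possible because the library numbers of the KO and WT groups are all different. The alternative that corrects for GC deciles was not run, since no genome sequence was used here. Single sites rest on few counts, so their ratios are imprecise.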

Other observations

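A group of genes of TGF-beta signalling, put together after the values were seen, held 6 sites in 93 open peaks of 18 genes (6.45%), beside 1.48% of all open peaks. Since sites on these genes prompted the group, its share was set by that choice, and no test was made and nothing is read from it. They were at Smad4 (ratio 0.508) and Smad3 (0.632), which carry the signal into the nucleus, Ski (0.526), a repressor of SMAD factors, Twsg1 (0.526), a modulator of BMP ligands, Tgfbr3 (0.592), a co-receptor, and Tgfb3 (0.631), a ligand. The site given to Tgfb3 lay in an intron of Ttll5. At Tgfbr3 the levels were 8.01, 4.83, 4.54, 8.28 and 10.1 CPM in KO libraries, against 12.9, 11.3, 11.6, 11.0 and 13.7 CPM in WT libraries, with no overlap. At Smad3 the levels were 8.73, 5.79, 7.57, 5.84 and 8.30 CPM in KO libraries, against 17.8, 9.75, 10.7, 12.3 and 6.83 CPM in WT libraries, and the groups overlapped. Groups also overlapped at Smad4, Ski, Twsg1 and Tgfb3, so Tgfbr3 was the only site of the 6 without overlap. The same genes held 4 peaks of the mirror set.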
